A study of Mus musculus with 4 samples.

Results

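Ppbp and Pf4, the genes of the platelet chemokines CXCL7 and CXCL4, were examined in RNA-seq libraries of mouse bone marrow cells. They were taken by symbol and make up 2 of the 15607 genes in the deposited table. The cells were sorted as lineage-negative, that is, depleted of cells carrying markers of mature blood lineages. The labels also call them hematopoietic stem and progenitor cells, and the sample titles call them HSCs (hematopoietic stem cells). The comparison was between wild type mice 1 and 3 and mice 5 and 6, whose blood system had been made conditionally Mel18-null, with 1 library per mouse. Mel18, encoded by Pcgf2, is a subunit of the Polycomb repressive complex PRC1, and the study asked whether its loss alters transcription in these cells. The Cre driver, the deleted exons, the strain, age, sex and any treatment are not given in these sources. The pair was chosen because an earlier look at the same contrast had called both genes higher in knockout. Their knockout and wild type levels are therefore given as a description, with no test.

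Pf4 and Ppbp are CXC chemokines made by megakaryocytes, the bone marrow cells that shed platelets, and are stored in the alpha granules of platelets until activation releases them. Pf4 binds heparin and related glycosaminoglycans and is known in mice as a megakaryocyte product that restrains hematopoietic stem cell cycling. Ppbp is made as a precursor that proteases such as cathepsin G trim to a neutrophil attractant acting through the receptor Cxcr2. Both genes are regarded as products of maturing megakaryocytes, and the Pf4 promoter is widely used to drive Cre in that lineage.

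The genes are neighbours on the plus strand of chromosome 5 (mm10). Ppbp (ENSMUSG00000029372.7) spans 90768518 to 90770063, and Pf4 (ENSMUSG00000029373.7) spans 90772435 to 90773383, with 2371 bases between them. In GENCODE no other gene overlapped either of them (0 in each case), and none of their 31-base words occurred in the transcripts of another gene (0 of 1053 for Ppbp and 0 of 690 for Pf4), read on either strand. The 250 bases before each annotated start are shown because the pair lies side by side and differed in the same direction (RefSeq, build GRCm38.p6, plus strand). The windows are chr5:90768268-90768517 for Ppbp and chr5:90772185-90772434 for Pf4. Capitals mark the GATA core GATA, the ETS core GGAA and the TATA box TATAAA, each on either strand.
Ppbp: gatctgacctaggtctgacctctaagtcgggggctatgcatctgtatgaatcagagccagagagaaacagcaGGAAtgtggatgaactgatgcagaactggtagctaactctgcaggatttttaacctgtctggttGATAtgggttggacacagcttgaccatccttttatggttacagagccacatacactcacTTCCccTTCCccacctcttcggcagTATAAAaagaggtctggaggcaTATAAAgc
Pf4: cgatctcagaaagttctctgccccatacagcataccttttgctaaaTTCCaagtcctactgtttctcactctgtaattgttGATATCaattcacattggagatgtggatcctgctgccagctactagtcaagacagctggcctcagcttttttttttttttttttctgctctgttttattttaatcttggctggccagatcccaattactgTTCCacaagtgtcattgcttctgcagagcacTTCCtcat
The GATA core, bound by the factors of the Gata1 family, was found 1 time before Ppbp and 2 times before Pf4, where the matches overlap in a palindrome. At least 1 such match lies in 53.6% of the 32841 windows of this length in the promoter table, and at least 2 in 24.2%. The ETS core, bound by factors such as Fli1 and Ets1, was found 3 times before each gene, and 54.7% of all windows hold as many. TATAAA was found 2 times before Ppbp, 1 of them from -30 to -25, and 0 times before Pf4, against 12.4% of all windows with any match. The RUNX motif TGTGGT was found in neither window (0 matches each, 14.0% of all windows). The E-box CANNTG was found 1 time before Ppbp and 2 times before Pf4, against 66.2% of all windows with any match and 31.8% with at least 2. The windows thus shared the GATA and ETS cores, which are common letters in promoters, and differed in TATAAA.

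**Figure D1:**
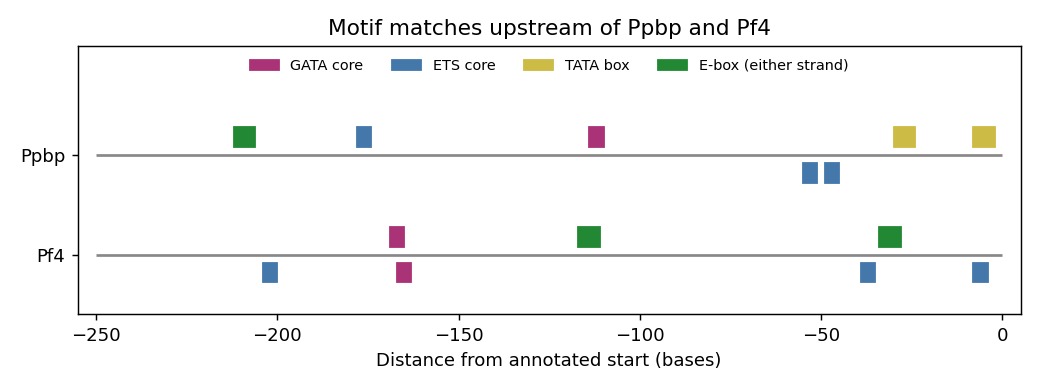
Motif matches in the 250 bases before the annotated starts of Ppbp and Pf4. The horizontal axis is the distance from the start in bases, boxes above the line are matches on the plus strand and boxes below it matches on the minus strand, and the E-box reads alike on either strand. Each window holds 3 ETS cores, while TATAAA is found in the Ppbp window alone.

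Library totals ranged from 35599564 to 46240864 counts. Pcgf2 itself was at 5.74 and 4.36 CPM (counts per 1000000) in the wild type libraries of mice 1 and 3, against 6.56 and 7.19 CPM in the knockout libraries of mice 5 and 6. The libraries labelled knockout were thus not lower, and with the deleted exons unknown this count does not check the genotype. Progenitor genes were present in all libraries, such as the stem cell factor receptor Kit (195 to 238 CPM), Cd34 (128 to 183 CPM) and the transcription factor Myb (478 to 525 CPM). Of the 10 stem and progenitor markers 0 passed the edgeR quasi-likelihood test (0 also at an unadjusted p under 0.05), against 0.135% and 8.89% of all genes. Transcripts of lineage-positive cells were detected as well, such as the T cell gene Cd3e (9.15 to 11.7 CPM). Neutrophil transcripts were far more abundant, with 10 markers summing to 19962 and 28333 CPM in wild type mice 1 and 3. The same sum was 14038 and 14242 CPM in knockout mice 5 and 6. The 10 stem and progenitor markers summed to between 1089 and 1303 CPM per library.

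Ppbp and Pf4 were higher in each knockout library than in each wild type library. The fitted fold change between the groups was 3.06 for Ppbp and 1.89 for Pf4. Counts of Ppbp were 360 in mouse 1 and 399 in mouse 3, both wild type, and 1583 in mouse 5 and 1325 in mouse 6, both knockout. Scaled to library size by TMM, these were 9.84, 11.02, 34.3 and 29.7 CPM in the same order. The lowest knockout level was 2.69 times the highest wild type level, so the groups lay well apart. The group levels (SD, n = 2) were 10.4 ± 0.832 CPM in wild type against 32.0 ± 3.25 CPM in knockout, and the fitted log2 fold change was 1.62 ± 0.12 (SE).

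Counts of Pf4 were 1058 in mouse 1, 1065 in mouse 3, 2790 in mouse 5 and 2226 in mouse 6. The levels were 28.9, 29.4, 60.4 and 49.8 CPM. Here the lowest knockout level was 1.70 times the highest wild type level. The group levels (SD, n = 2) were 29.2 ± 0.343 CPM in wild type against 55.1 ± 7.45 CPM in knockout, for a fitted log2 fold change of 0.92 ± 0.11 (SE). The authors' deposited table gives log2 fold changes of 1.62 for Ppbp and 0.92 for Pf4. Across all genes the median log2 fold change was -0.0053, and the 5th and 95th percentiles were -0.58 and 0.41. The quasi-likelihood test called 5 genes higher in knockout, 0.032% of the 15607, and the pair was chosen after an earlier look at the same contrast. Both knockout libraries lay above both wild type libraries for 21.4% of all genes. These shares are given as the background of the choice, and nothing about the pair is read from them. As these are bulk samples, more cells of a type and more RNA per cell cannot be told apart.

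**Figure D2:**
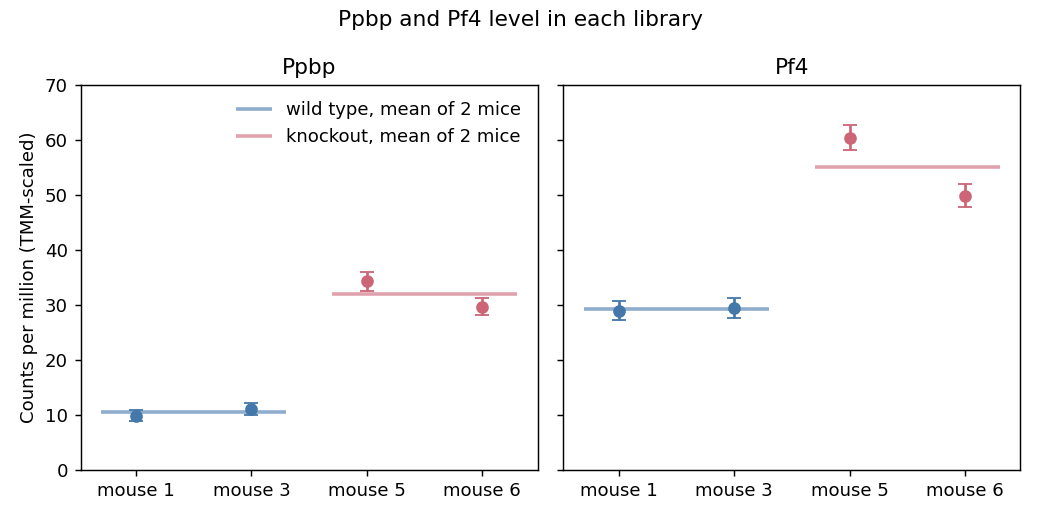
Ppbp and Pf4 level in each library, in TMM-scaled CPM. Points are libraries with exact 95% Poisson intervals, which cover counting error only, and horizontal lines are the means of 2 mice. Ppbp sits between 9.84 and 11.02 CPM in wild type and between 29.7 and 34.3 CPM in knockout, and Pf4 between 28.9 and 29.4 CPM and between 49.8 and 60.4 CPM.

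The order of the levels was the same for both genes, with knockout mouse 5 above knockout mouse 6, then wild type mouse 3 and wild type mouse 1. The exact 95% Poisson intervals of the wild type libraries overlapped, at 8.85 to 10.9 and 9.96 to 12.2 CPM for Ppbp in mice 1 and 3, and at 27.2 to 30.7 and 27.7 to 31.2 CPM for Pf4. The intervals of the knockout libraries did not overlap, with Ppbp at 32.6 to 36.0 CPM in mouse 5 and 28.1 to 31.3 CPM in mouse 6, and Pf4 at 58.2 to 62.7 and 47.8 to 52.0 CPM. On the log2 CPM scale the SD between the wild type mice was 0.11 for Ppbp and 0.017 for Pf4, and between the knockout mice 0.15 and 0.20. The counting error alone would give 0.074 and 0.044 in wild type, and 0.038 and 0.029 in knockout. The SD between mice was thus below the counting error for Pf4 in wild type, and above it for Ppbp in wild type and for both genes in knockout.

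Corrected for gene length, which matters because the library chemistry covers whole transcripts, Pf4 was the more abundant transcript in every library. In CPM per kilobase, Ppbp stood at 9.09, 10.2, 31.6 and 27.4 in wild type mice 1 and 3 and knockout mice 5 and 6. Pf4 stood at 40.1, 40.8, 83.7 and 69.1 CPM per kilobase in the same libraries. Among the 15607 genes of a library ranked by this level, Ppbp stood at the 63.2 and 65.3 percentiles in wild type and at the 87.4 and 85.2 percentiles in knockout. Pf4 was already at the 90.8 and 90.5 percentiles in wild type and stood at 96.4 and 95.2 in knockout. In the authors' deposited table the log2 RPKM values (reads per kilobase, scaled to library size) were 3.19, 3.35, 4.99 and 4.78 for Ppbp and 5.33, 5.35, 6.39 and 6.11 for Pf4.

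The balance within the pair also differed between the groups. Ppbp made up 25.4% of the counts of the pair in wild type mouse 1 (exact 95% binomial interval 23.1 to 27.7%) and 27.3% in wild type mouse 3 (24.99 to 29.6%). It made up 36.2% in knockout mouse 5 (34.8 to 37.6%) and 37.3% in knockout mouse 6 (35.7 to 38.9%). The share was alike within each group and did not overlap between them, and being taken within a library it does not depend on library scaling. The log2 ratio of Ppbp to Pf4 counts was -1.49 ± 0.098 in wild type and -0.78 ± 0.049 in knockout (SD, n = 2), a difference of 0.70. Since both genes were chosen on this contrast, the ratio was not tested.

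Against other megakaryocyte transcripts of the same library, Ppbp stood higher in knockout in each ratio taken, while Pf4 did so against some of them. Together, Ppbp and Pf4 amounted to 6.43% and 7.50% of the summed CPM of 25 platelet surface receptor genes in wild type mice 1 and 3, and to 14.5% and 12.8% in knockout mice 5 and 6. Against Itga2b, the integrin alpha IIb chain present from early megakaryocytes on, the Ppbp count ratio was 0.0601, 0.0839, 0.200 and 0.182. The same ratio for Pf4 was 0.177, 0.224, 0.353 and 0.306. Both ratios to Itga2b were higher in each knockout library than in each wild type library. The pair was chosen as higher on this same contrast. Higher ratios to Itga2b and to the receptor sum therefore follow from that choice and were not tested. Against Gp1ba, part of the receptor with which platelets bind von Willebrand factor, the Pf4 ratio was 4.90, 5.00, 4.67 and 4.21, and the Ppbp ratio was 1.67, 1.87, 2.65 and 2.505. Against F2rl2, a thrombin receptor gene, the Pf4 ratio was 5.24, 4.80, 4.96 and 4.95, with overlapping groups, and the Ppbp ratio was 1.78, 1.80, 2.81 and 2.94. Pf4 was thus lower against Gp1ba in knockout and overlapped against F2rl2, whereas Ppbp was higher against both. Gp1ba and F2rl2 are, however, among the 5 genes closest to Pf4 over these same 4 libraries. Ratios near constant for Pf4 and higher for Ppbp are therefore built into this choice of genes, and nothing further is read from them.

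**Figure D3:**
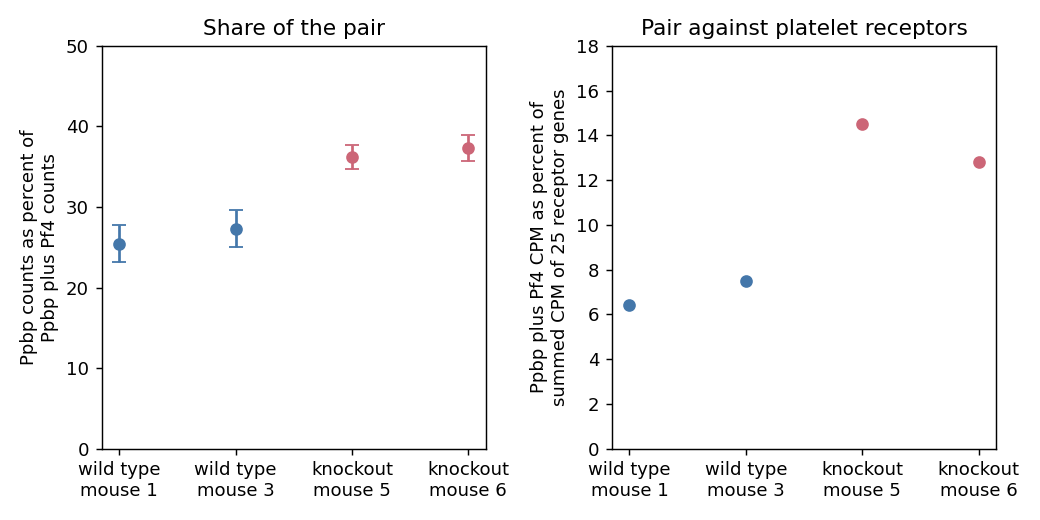
Left, Ppbp counts as a percent of Ppbp plus Pf4 counts in each library, with exact 95% binomial intervals. Right, the summed CPM of the pair as a percent of the summed CPM of 25 platelet surface receptor genes. The shares lie at 25.4 and 27.3% in wild type and at 36.2 and 37.3% in knockout on the left, and at 6.43 and 7.50% and at 14.5 and 12.8% on the right. The pair was chosen as higher on this contrast, so the difference on the right follows from that choice.

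Other genes of the megakaryocyte and platelet program were examined as lists chosen with earlier results of these data known. Over all genes the quasi-likelihood test with Benjamini-Hochberg adjustment called 21 of 15607, or 0.135%. Of the same 15607 genes, the DESeq2 Wald test called 216, the edgeR likelihood ratio test 200 and limma voom 0. These totals are the background for the calls in every list below. Alpha granule cargo, the proteins stored beside Pf4 and Ppbp, had no called member (0 of 16, with 2 higher and 1 lower at an unadjusted p under 0.05, which 8.89% of all genes reached). DESeq2 called 1 of these genes, the edgeR likelihood ratio test 2 and limma voom 0. The list had a median log2 fold change of 0.02. Vwf, von Willebrand factor of platelets and endothelium, was at 39.1 and 48.5 CPM in wild type against 84.1 and 63.8 CPM in knockout (log2 fold change 0.76, quasi-likelihood adjusted p = 0.275). Clusterin, Clu, had a fitted log2 change of 0.68 (adjusted p = 0.302 by quasi-likelihood), and the adhesive protein thrombospondin, Thbs1, one of -0.47 (adjusted p = 0.279 by quasi-likelihood). Srgn, the proteoglycan core that holds Pf4 in the granule, was at 991 and 825 CPM in wild type against 818 and 734 CPM in knockout (log2 fold change -0.23, adjusted p = 0.641 by quasi-likelihood). The other cargo genes therefore spanned both directions, and the knockout libraries lay above the wild type ones for 6 of 16 and below for 3, against 21.4% and 20.9% of all genes.

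Genes that build the granules had a median log2 fold change of -0.027, with 0 of 20 called by quasi-likelihood, 1 with an unadjusted p under 0.05, and 0 called by DESeq2, the likelihood ratio test and voom. That member was Rab27b, a GTPase of granule secretion (log2 fold change 0.61, adjusted p = 0.396 by quasi-likelihood). The dense granule genes Slc35d3 and Slc17a9, the latter a nucleotide transporter, had log2 fold changes of 0.38 and -0.18 (quasi-likelihood adjusted p = 0.581 and 0.620). Nbeal2, which is needed for alpha granules to form, was at 256 and 295 CPM in wild type against 256 and 262 CPM in knockout, so its groups overlapped.

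Platelet surface receptors had the highest median of the platelet lists, a log2 fold change of 0.24. None of the 25 measured was called by quasi-likelihood (0 of 25). At an unadjusted p under 0.05 there were 8 higher and 1 lower, where 8.89% of all genes reached it in either direction. DESeq2 called 4, the likelihood ratio test 5 and voom 0, against 216, 200 and 0 of all 15607 genes. Leaving out wild type mouse 1 or 3 gave a median log2 fold change of 0.40 or 0.18. Gp1ba was at 5.90 and 5.88 CPM in wild type against 12.9 and 11.8 CPM in knockout (log2 fold change 1.07 ± 0.14 (SE), quasi-likelihood adjusted p = 0.0631). F2rl2 was at 5.52 and 6.13 CPM in wild type against 12.2 and 10.1 CPM in knockout (log2 fold change 0.93 ± 0.17 (SE), quasi-likelihood adjusted p = 0.155). Both lay apart between groups, as did Gp5, another subunit of the von Willebrand factor receptor, at 14.4 and 14.2 against 23.6 and 20.1 CPM (log2 fold change 0.61, quasi-likelihood adjusted p = 0.172). Itga2b, the receptor gene with the highest CPM, was at 164 and 131 CPM in wild type against 171 and 163 CPM in knockout, and its groups overlapped (log2 fold change 0.18, adjusted p = 0.662 by quasi-likelihood). The knockout libraries lay above the wild type ones for 13 of the 25 and below for 1, where 21.4% and 20.9% of all genes did so.

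Cytoskeletal, signalling and eicosanoid genes of platelets had a median log2 fold change of 0.015. Of the 23 measured, quasi-likelihood called 0. At an unadjusted p under 0.05 there were 4 higher and 1 lower, where 8.89% of all genes reached it in either direction. DESeq2 called 3, the likelihood ratio test 1 and voom 0, against 216, 200 and 0 of all 15607 genes. Mrvi1, a target of cyclic GMP kinase, was at 6.21 and 9.06 CPM in wild type against 16.7 and 16.5 CPM in knockout (log2 fold change 1.12, adjusted p = 0.132 by quasi-likelihood). The cyclic GMP phosphodiesterase Pde5a and the caveolar protein Cavin2 had log2 fold changes of 0.63 and 0.69 (quasi-likelihood adjusted p = 0.249 and 0.269). The actin crosslinker Flna, present in most cells, had one of 0.064 (quasi-likelihood adjusted p = 0.918), which turned negative without wild type mouse 1 (-0.13) or knockout mouse 6 (-0.022). Over the 84 genes of the 4 platelet lists, the median log2 fold change was 0.043. The lists hold genes present in most cells, such as Flna, so this median does not describe megakaryocyte genes alone. Of the 84 genes, 8 exceeded Pf4 in fold change, namely Sparc, Gp1ba, F2rl2, Mpig6b, Treml1, Gp6, Gp1bb and Mrvi1. Of these, 1 exceeded Ppbp, the matrix and platelet protein gene Sparc. Sparc is also on the list of stroma and endothelium markers described below.

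Transcription factors of the megakaryocyte program had a median log2 fold change of -0.040. Quasi-likelihood called 0 of 24, as did DESeq2, the likelihood ratio test and voom. At an unadjusted quasi-likelihood p under 0.05 there were 1 higher and 2 lower, where 8.89% of all genes reached it in either direction. Gfi1b, a repressor needed by megakaryocytes and red cells, was at 78.3 and 93.6 CPM in wild type against 120 and 104 CPM in knockout (log2 fold change 0.38, quasi-likelihood adjusted p = 0.411). Gata1, whose product binds GATA cores, was at 94.5 and 119 CPM in wild type against 135 and 113 CPM in knockout, so the groups overlapped (log2 fold change 0.22, quasi-likelihood adjusted p = 0.652). Fli1, an ETS factor of megakaryocytes, overlapped as well, at 79.4 and 97.3 against 80.0 and 86.7 CPM. Ets1 had a fitted log2 change of -0.29 (quasi-likelihood adjusted p = 0.354). Without wild type mouse 3, the median log2 fold change of these factors was -0.023.

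**Figure D4:**
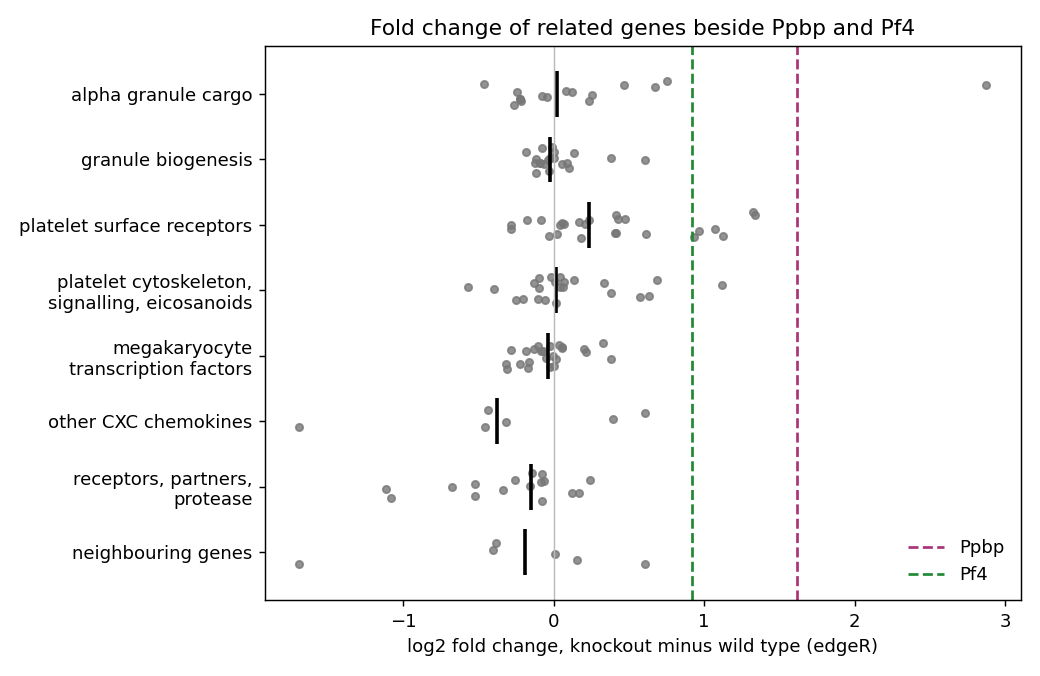
Fitted log2 fold change, knockout minus wild type, of each measured gene in 8 lists related to Ppbp and Pf4. Grey points are genes, black bars list medians, and dashed lines the values of Pf4 (0.92) and Ppbp (1.62). The medians of the 4 platelet lists lie between -0.027 and 0.24, to the left of both lines. Pf4 and Ppbp were chosen as higher on this contrast, so this position follows from that choice and nothing is read from it.

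None of the other CXC chemokines was called, and their fitted log2 changes fell on either side of 0. Of 6 measured, quasi-likelihood called 0 (0 higher and 1 lower at an unadjusted p under 0.05), and DESeq2, the likelihood ratio test and voom called 1, 1 and 0. Their median log2 fold change was -0.38. Cxcl2, an inducible neutrophil attractant 130 kb from the pair, was at 11.2 and 6.10 CPM in wild type against 2.45 and 2.93 CPM in knockout (log2 fold change -1.69 ± 0.31 (SE), quasi-likelihood adjusted p = 0.165). Each of its knockout values was under each wild type value, the opposite order to Pf4 and Ppbp. Cxcl9, induced by interferon gamma, and Cxcl16 had log2 fold changes of -0.45 and -0.44 (quasi-likelihood adjusted p = 0.627 and 0.702). Cxcl5, the gene before Ppbp on the chromosome, had 9 and 2 counts in wild type against 8 and 13 in knockout, too few to show a difference of the size seen in the pair.

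Within 500 kb of the pair the table holds 6 other genes, Cxcl2 and Cxcl5 among them, and quasi-likelihood called 0 (0 higher and 1 lower, Cxcl2, at an unadjusted p under 0.05), DESeq2 1, the likelihood ratio test 1 and voom 0. Ankrd17, an ankyrin repeat gene, was at 150 and 169 CPM in wild type against 179 and 177 CPM in knockout (log2 fold change 0.15, quasi-likelihood adjusted p = 0.638). Mthfd2l, a mitochondrial folate enzyme gene, was at 4.05 and 3.45 against 3.94 and 3.61 CPM, with overlapping groups. Gm9958, a predicted gene, had a fitted log2 change of -0.38 (quasi-likelihood adjusted p = 0.661), as Afp, the gene of alpha-fetoprotein, had one of -0.41 (adjusted p = 0.670 by quasi-likelihood). The median of the 6 was -0.19.

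Among receptors, binding partners and the processing protease of the pair, Cxcr2 was lower in knockout, and it was the 1 called gene of 16 by quasi-likelihood. Cxcr2, the neutrophil receptor of processed Ppbp, was at 80.9 and 87.5 CPM in wild type against 52.1 and 53.5 CPM in knockout. It fell, with a log2 fold change of -0.67 ± 0.077 (SE; quasi-likelihood adjusted p = 0.0449), below in both knockout libraries. The call was lost without knockout mouse 5 (quasi-likelihood adjusted p = 0.417) or 6 (quasi-likelihood adjusted p = 0.165), with a filter of 1 CPM in 2 libraries (quasi-likelihood adjusted p = 0.0520) and with limma voom (adjusted p = 0.0927), and its adjusted p over all alternatives ran from 3.28e-07 to 0.417. The receptor Ccr1 had a fitted log2 change of -0.52 (quasi-likelihood adjusted p = 0.105), and the stem cell homing receptor Cxcr4 one of -0.26 (quasi-likelihood adjusted p = 0.564). Ctsg, the gene of cathepsin G, was at 1520 and 1452 CPM in wild type against 1423 and 1379 CPM in knockout (log2 fold change -0.086, quasi-likelihood adjusted p = 0.834). Cxcr3, a receptor of Pf4, was at 19.1 and 12.2 against 11.7 and 13.2 CPM, with overlapping groups. The 16 genes had a median of -0.15. Beside this list, all 10 neutrophil markers lay lower in both knockout libraries, as did 20.9% of all genes. Quasi-likelihood called 2 of them lower (Cxcr2, in both lists, and Retnlg), against 0.103% of all genes. Their summed level was 19962 and 28333 CPM in wild type against 14038 and 14242 CPM in knockout. Their part in the values of Cxcr2 was not tested.

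The genes closest to each member were found by the root mean square difference, over the 4 libraries, between log2 CPM values centred on each gene's own mean. Candidates were the 11162 other genes with at least 2 CPM on average and no predicted symbol. For Pf4 the closest was the thrombin receptor gene F2rl2 (difference 0.045 on the log2 scale), followed by the LIM domain gene Fhl1 (0.076), the laminin chain Lamb1 (0.079), Myom1 (0.090) and Gp1ba (0.094). For Ppbp the closest was Timp3, an inhibitor of matrix metalloproteinases (0.10), followed by the matrix proteoglycan Bgn (0.18), the phosphodiesterase Pde3a (0.18), Lrrc32, which carries latent TGF beta on platelets (0.18), and the immunoglobulin segment Ighv2-6 (0.19). Pf4 and Ppbp differed from each other by 0.35, which placed Pf4 at rank 15 for Ppbp and Ppbp at rank 588 for Pf4. Likeness here follows the size of the difference between groups, which was larger for Ppbp.

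Timp3 was at 6.12 and 6.85 CPM in wild type against 18.2 and 16.5 CPM in knockout, and rose, with a log2 fold change of 1.42 ± 0.14 (SE; quasi-likelihood adjusted p = 0.0318). Its call was lost without knockout mouse 5 (quasi-likelihood adjusted p = 0.288) and with limma voom (adjusted p = 0.0894), and its adjusted p over the alternatives ran from 2.89e-12 to 0.288. None of the other 9 genes closest to the pair passed the quasi-likelihood test, with adjusted p from 0.0631 for Gp1ba to 0.369 for Fhl1. Timp3 and these 9 were picked by their likeness to the pair over the same libraries. Their adjusted p-values are therefore no separate evidence of a difference. Among 11675 genes with at least 2 CPM on average, 20 had a larger log2 fold change than Ppbp, namely 10 immunoglobulin segments, 5 collagen genes and 5 others. Larger than Pf4 were 50, namely 25 immunoglobulin genes, 5 collagen genes and 20 others, Ppbp included.

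**Figure D5:**
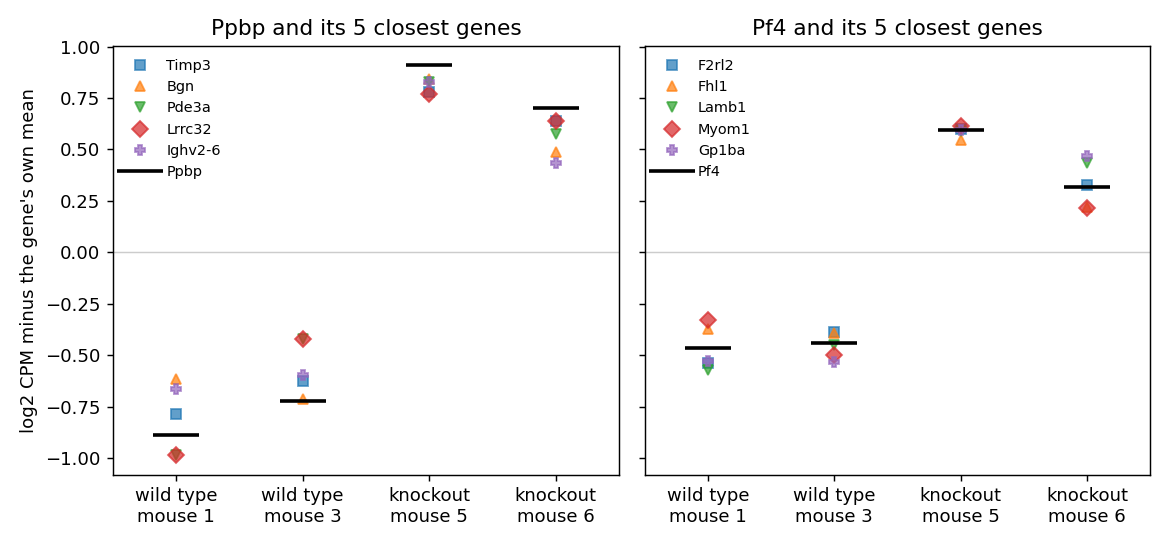
Log2 CPM minus the gene's own mean in each of the 4 libraries, for Ppbp (left) and Pf4 (right) as black bars and for the 5 genes closest to each as coloured symbols. Each gene lies below its mean in wild type mice 1 and 3 and above it in knockout mice 5 and 6.

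The summed levels of stromal and endothelial markers also differed between the groups, with no overlap. Stroma and endothelium markers summed to 153 and 257 CPM in wild type libraries against 774 and 728 CPM in knockout libraries. Of 14 measured, 10 were higher in both knockout libraries, where 21.4% of all genes were. Quasi-likelihood called 0, with 6 at an unadjusted p under 0.05, which 8.89% of all genes reached in either direction. Lum, a fibroblast marker, had 0 and 3 counts in wild type against 42 and 26 in knockout. Col1a1, the main collagen gene of bone, stood at 4.73 and 80.1 CPM in wild type and at 352 and 326 CPM in knockout (log2 fold change 3.00, adjusted p = 0.682 by quasi-likelihood). The sum of 10 erythroid markers was 1756 and 2021 CPM in wild type against 2465 and 1834 CPM in knockout, with overlapping groups. The part of these cells in the levels of Pf4 and Ppbp was not tested.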

How the data were processed

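The 4 RNA-seq libraries were prepared with SMART-Seq v4 and Nextera XT chemistry, per the labels' protocols, a chemistry that does not mark strand. Per the submitters' processing notes, Trimmomatic 0.40, STAR 2.5 and edgeR 3.28.1 were used on mm10. How reads were counted, and on which annotation, is not given in these sources. The deposited table holds raw counts per gene, and each library's log2 CPM and log2 RPKM, computed by the authors. Its p-values and log2 fold changes are the authors' own comparison, per the file headers. Gene length was taken from the deposited table. Its 2 count columns that match no labelled sample were left out.

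Counts were analysed with edgeR 4.0.16 in R 4.3.3 (TMM, robust quasi-likelihood fit and F test, 2 residual degrees of freedom, Benjamini-Hochberg over 15607 genes, threshold 0.05). The filterByExpr step removed 0 genes. SEs came from the F statistic. The test was run on simulated data first. Intervals cover counting error only, since the reads carry no molecular identifiers. Samples were grouped by the labels, which name a separate mouse per library. Alternatives used limma 3.58.1, DESeq2 1.42.0, other scalings and filters, and each library left out. Likeness used log2 CPM with a prior count of 2.

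The members and lists were chosen with earlier results of these data known. From each list and the neighbours within 500 kb, the text names the 3 members with the smallest p, the one with the highest mean CPM and any past the threshold, with the 5 genes closest to each of the pair. Gata1, Fli1, Cxcr3, Cxcl5, Mthfd2l, Afp, Sparc and the markers were named outside it after their values were seen. Some genes that this rule or the marker lists would name are not reported here.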

Additional observations from a re-analysis of the deposited data

How the results depend on the processing

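No paired analysis was possible because the mice of the groups share no replicate number. The log2 fold changes of Ppbp and Pf4 moved by less than the spread between mice under every other scaling, test and filter tried. Leaving out each library in turn gave 1.505 to 1.72 for Ppbp, 0.77 to 1.05 for Pf4 and 0.63 to 0.77 for the log2 ratio of the pair. The number of genes called was less stable. Leave-one-out gave 5 to 844 in all, 4 to 404 higher and 1 to 440 lower, the largest numbers without wild type mouse 3. Without either wild type mouse the spread comes from the knockout mice alone, so this does not set mouse 3 apart. The cause of the larger numbers without mouse 3 was not tested. Across the lists it gave 0 to 3 calls for alpha granule cargo, 0 to 3 for transcription factors, 0 to 4 for surface receptors, 0 to 4 for cytoskeletal and signalling genes, 0 to 1 for other CXC chemokines, 0 to 7 for receptors and partners, 0 to 1 for neighbouring genes and 0 for granule biogenesis.

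The DESeq2 Wald test called 216 genes, 47 higher and 169 lower, with 1, 4, 3, 1, 2 and 1 in the lists of alpha granule cargo, surface receptors, cytoskeletal and signalling genes, other CXC chemokines, receptors and partners, and neighbouring genes. The edgeR likelihood ratio test called 200, 62 higher and 138 lower, with 2, 5, 1, 1, 2 and 1 in the same lists. Limma voom called 0 genes, 0 higher and 0 lower, and 0 among receptors and partners. A filter of 1 CPM in 2 libraries left 10 calls, 6 of them lower, and 0 among receptors and partners. The cause of these differences was not tested. Near-zero log2 fold changes changed sign when a library was left out, ranging from -0.13 to 0.27 for Flna, from -0.19 to 0.0091 for Nbeal2 and from -0.0028 to 0.10 for Myb. Low counts limit the precision of Cxcl5 and Lum.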
